A study of Mus musculus with 12 samples.

Results

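The 53 genes described here encode the machinery of G2 and mitosis, the stages of the cell cycle in which a cell with copied chromosomes prepares to divide and then separates them. They were taken by gene symbol from a table of 46262 genes, and all 53 symbols were found. By role, 13 encode cyclins, kinases and factors of protein turnover, 14 act at the kinetochore, in the spindle checkpoint or in the chromosomal passenger complex, 11 are kinesins and spindle proteins, 8 shape chromosomes and 7 act in cytokinesis. RNA was sequenced from primary wild-type mouse microglia, which are the macrophages of brain tissue, taken from mixed glial cultures and kept with 1 ligand of the receptor CSF1R for 24 hours. The name of the deposited table calls the microglia neonatal, and the labels give no age. The 4 groups of 3 libraries were cerebellar microglia with IL-34 at 100 ng/ml, cerebellar microglia with CSF-1 at 20 ng/ml, forebrain microglia with IL-34 at 100 ng/ml and forebrain microglia with CSF-1 at 20 ng/ml. No group went without a ligand, and the ligands were given at different doses, so each ligand difference is one between these doses. The design text calls the mixed glial cultures of the replicates independent, and whether 1 culture gave cells to several groups is not stated. Values are TPM, a share of each library's transcripts corrected for transcript length, and the read depth behind them is unknown.

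Entry into mitosis is driven by the kinase CDK1 bound to cyclin B, helped by the kinases PLK1 and Aurora A, and it ends when the anaphase-promoting complex, switched on by CDC20, marks cyclin B for destruction. Most genes of this machinery are transcribed late in the cycle. In resting cells the DREAM complex, which holds E2F4 and the LIN proteins, keeps them low, and in dividing cells B-MYB and FOXM1 raise them through promoter elements known as the CHR and the CCAAT box. Microglia divide slowly in the healthy adult brain, and signals through CSF1R sustain their survival and proliferation. In RNA from bulk cultures, fewer dividing cells and less of these transcripts per cell cannot be told apart.

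The mitotic genes were at their lowest in cerebellar microglia with IL-34 and at their highest in forebrain microglia with CSF-1. Summed over all 53 genes, they took 211, 209.7 and 223 TPM in the 3 cerebellar IL-34 libraries, 249, 261 and 253 TPM in the cerebellar CSF-1 libraries, 322, 298 and 298 TPM in the forebrain IL-34 libraries and 373, 397 and 400.3 TPM in the forebrain CSF-1 libraries. No library of any group reached into the range of another group, and the group means were 214 ± 7.23, 254 ± 6.14, 306 ± 14.1 and 390.0 ± 14.7 TPM (SD, n = 3 each) in the same order. The sum was 29.9% lower in cerebellum than in forebrain with IL-34 and 34.8% lower with CSF-1. With IL-34 it was 15.7% lower than with CSF-1 in cerebellum and 21.6% lower in forebrain. Gene by gene, the mean was highest in forebrain CSF-1 libraries for 49 of 53 genes, as it was for 23.9% of all genes tested. It was lowest in cerebellar IL-34 libraries for 41 of 53, as for 39.8% of all genes tested. Both held for 38 of 53 genes and for 15.8% of all genes tested.

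**Figure D1:**
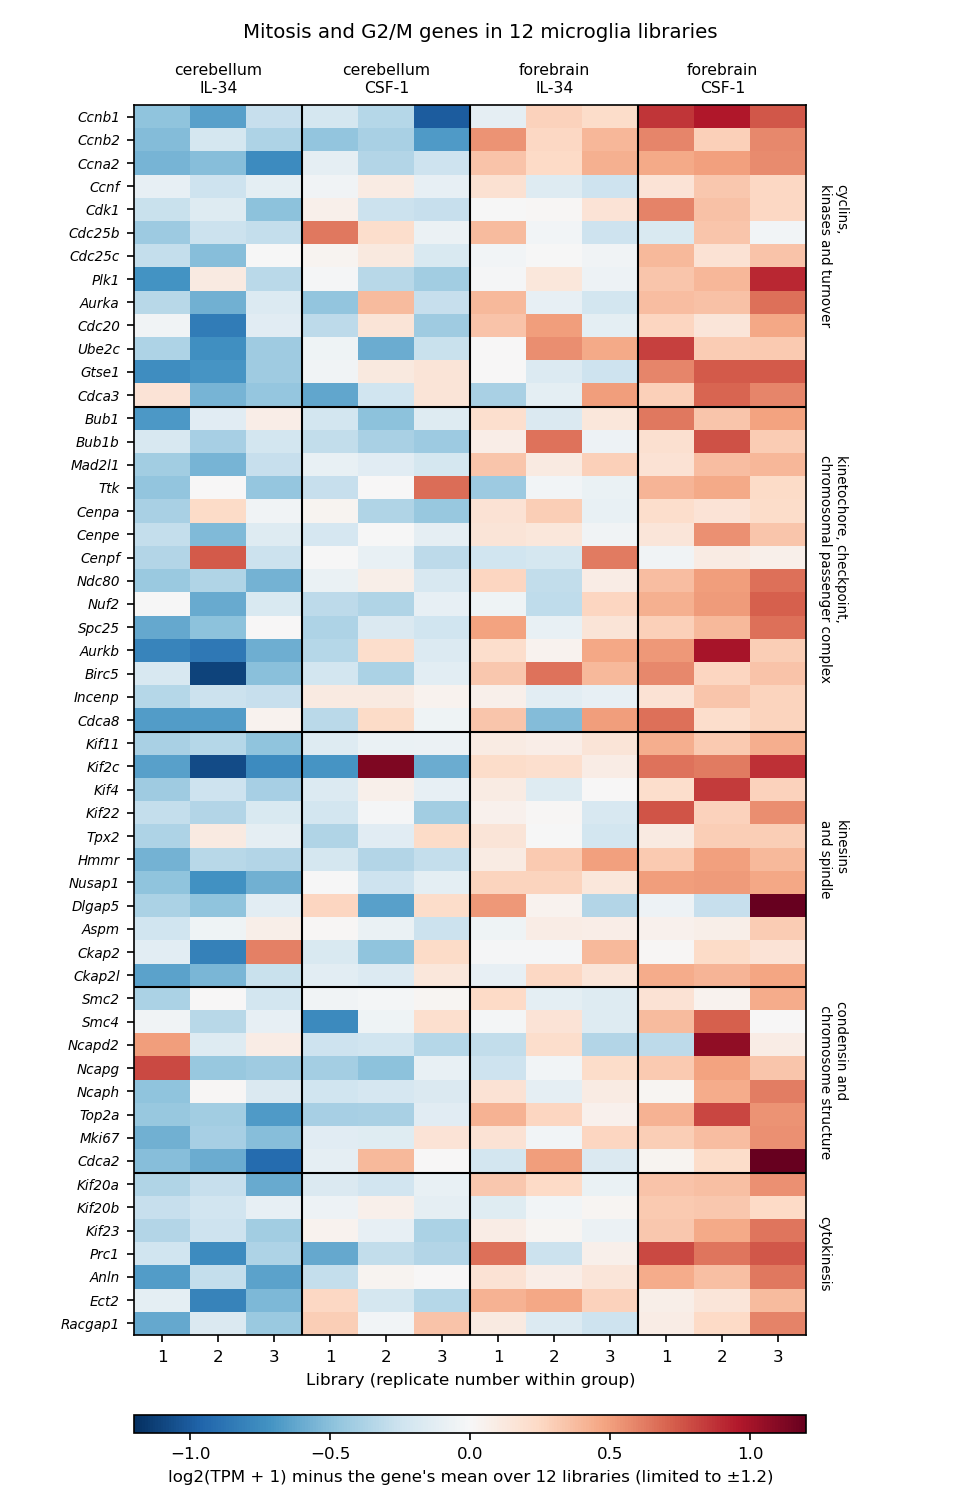
Log2(TPM + 1) of each of the 53 genes in each of the 12 libraries, with the gene's mean over the libraries subtracted, by role (rows) and group (columns). The 3 forebrain CSF-1 columns at the right are mostly red and the 3 cerebellar IL-34 columns at the left mostly blue, with 49 of 53 genes highest on average in forebrain CSF-1 libraries.

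These were transcripts of low abundance. The mean over the 12 libraries ranged from 0.279 TPM for Aspm, a spindle pole protein, to 25.2 TPM for Incenp, the scaffold of the chromosomal passenger complex, with a median of 3.78 TPM. It was under 5 TPM for 29 genes and at least 10 TPM for 7. Of the 53 genes, 39 had at least 1 TPM in all 12 libraries. The test across genes required 1 TPM in at least 3 of the 12 libraries, and 50 of the 53 passed. Aspm, Cdc25c and Cenpf did not pass and were not tested. Cenpe and Kif4 passed with fewer than 3 cerebellar libraries at 1 TPM, so they entered the test through their forebrain libraries.

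Markers of microglia were abundant, and small amounts of transcripts from other cells differed between the regions. The 10 microglial markers summed to between 7177 and 7855 TPM per library. The 8 astrocyte markers summed to between 15.1 and 16.3 TPM in cerebellar IL-34 libraries, 16.95 and 19.8 TPM in cerebellar CSF-1 libraries, 29.1 and 32.1 TPM in forebrain IL-34 libraries and 30.4 and 32.6 TPM in forebrain CSF-1 libraries. Of the 7 tested, Aldoc, Gfap and Gja1 were lower in cerebellum with either ligand. The 8 mesenchymal markers summed to between 4.73 and 5.19 TPM, 6.26 and 7.83 TPM, 11.8 and 17.7 TPM, and 11.5 and 19.1 TPM in the 4 groups in the same order, and 2 of the 3 tested, Acta2 and Tagln, were lower in cerebellum with either ligand. The 9 oligodendrocyte lineage markers ran the other way, with 75.1 to 81.2 TPM in cerebellar IL-34 libraries against 58.0 to 64.9 TPM in forebrain IL-34 libraries, and 90.4 to 100.3 TPM in cerebellar CSF-1 libraries against 60.0 to 72.8 TPM in forebrain CSF-1 libraries. Neuronal markers summed to 1.51 TPM or less, endothelial markers to between 6.01 and 11.1 TPM, and 1 marker of each of these lists was at 0 in all libraries. The part of astrocytes or mesenchymal cells in the regional differences given next was not tested. The libraries also differed in how short their detected transcripts were. The length floor, under which lie 1 percent of the transcripts with at least 5 TPM, was at 503, 491 and 580 nt for cerebellar IL-34 and at 592 to 669 nt for the other 9 libraries. Its part in the results on cerebellar IL-34 libraries was not tested beyond the fits named beside them.

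Many promoters of the mitotic genes carry the elements named above, shown here because they are what the members share in sequence. RefSeq promoter sequences, from 250 bases before to 50 bases after the gene's start on GRCm38.p6, were found for 44 of the 53 genes. A gene was counted if any of its promoter sequences held the letters. The core of the CHR, TTTGAA on either strand, was present in 34 of the 44 genes (77.3%). It was present in 20.2% of 27025 mouse genes and in 14.4% of 8996 genes tested here. CCAAT on either strand was present in 35 of 44 (79.5%), against 41.1% of all these genes and 43.1% of tested genes. Of 31 DNA replication genes with a promoter sequence, 22.6% held TTTGAA and 58.1% held CCAAT. Both elements were present in 30 mitotic genes, TTTGAA alone in 4 (Ndc80, Kif2c, Kif20b and Anln), CCAAT alone in 5 (Ccnb1, Cdc25b, Gtse1, Bub1 and Cenpe) and neither in 5 (Mad2l1, Nuf2, Birc5, Nusap1 and Ncaph).

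The 150 bases before the start are printed below for 7 genes, each 5′ to 3′ on the gene's own strand, with TTTGAA (or its reverse TTCAAA), the related TTCGAA, and CCAAT (or its reverse ATTGG) in capitals. Cdk1 (chr10:69352913-69353062, minus strand) and Cdc20 (chr4:118437344-118437493, minus strand) are core regulators with a CHR close to the start. Kif11 (chr19:37376232-37376381, plus strand) and Kif22 (chr7:127042421-127042570, minus strand) encode spindle motors and hold TTCAAA at nearly the same place. Top2a (chr11:99024190-99024339, minus strand) has the most CCAAT boxes of the 7. Mki67 (chr7:135716380-135716529, minus strand) holds TTTGAA at 2 places farther upstream. Ccnb1 (chr13:100786487-100786636, minus strand) has CCAAT boxes but none of the searched CHR letters in this window. A match is a run of letters and not evidence of binding.
Cdk1: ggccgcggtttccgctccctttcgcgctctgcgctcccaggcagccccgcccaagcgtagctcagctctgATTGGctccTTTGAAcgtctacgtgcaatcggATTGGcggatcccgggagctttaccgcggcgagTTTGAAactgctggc
Cdc20: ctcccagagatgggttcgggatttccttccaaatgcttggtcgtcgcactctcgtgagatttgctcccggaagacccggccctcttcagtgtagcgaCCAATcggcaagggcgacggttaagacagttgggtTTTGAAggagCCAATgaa
Kif11: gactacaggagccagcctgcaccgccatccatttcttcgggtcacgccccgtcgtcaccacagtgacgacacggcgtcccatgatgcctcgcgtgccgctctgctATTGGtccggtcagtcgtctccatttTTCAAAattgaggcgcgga
Kif22: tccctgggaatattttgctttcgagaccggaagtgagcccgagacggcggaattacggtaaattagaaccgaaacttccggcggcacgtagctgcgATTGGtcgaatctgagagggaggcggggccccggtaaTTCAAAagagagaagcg
Top2a: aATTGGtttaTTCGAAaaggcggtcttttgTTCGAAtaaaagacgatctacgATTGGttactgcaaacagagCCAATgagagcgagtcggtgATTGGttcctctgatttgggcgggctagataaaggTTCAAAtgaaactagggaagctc
Mki67: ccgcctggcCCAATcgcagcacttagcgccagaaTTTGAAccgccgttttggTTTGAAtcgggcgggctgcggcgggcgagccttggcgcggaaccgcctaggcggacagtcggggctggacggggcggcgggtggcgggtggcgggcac
Ccnb1: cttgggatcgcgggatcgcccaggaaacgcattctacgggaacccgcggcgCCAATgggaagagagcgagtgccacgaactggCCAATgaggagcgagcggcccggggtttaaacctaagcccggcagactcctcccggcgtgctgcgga

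The regional difference was the wider of the 2 comparisons for these genes. With CSF-1, 20 of the 50 tested genes were lower in cerebellar than in forebrain microglia and none was higher, where 3.42% of all genes tested were called lower. With IL-34, 17 of 50 were lower and none higher, where 8.22% of all genes were called lower. Of these, 10 were called with both ligands (Ccna2, Ccnb2, Gtse1, Hmmr, Kif11, Kif20a, Mad2l1, Nusap1, Top2a and Ube2c), 10 with CSF-1 alone (Bub1, Bub1b, Ccnb1, Cdk1, Kif22, Kif23, Ndc80, Nuf2, Prc1 and Spc25) and 7 with IL-34 alone (Anln, Aurkb, Birc5, Ckap2l, Ect2, Incenp and Mki67). Bub1, Ccnb1, Cdk1 and Prc1 were also called with IL-34 over protein-coding transcripts, and Anln with CSF-1. The 2 regional contrasts use separate libraries, and the difference was below 0 in both for 51 of 53 genes. Of 12419 genes tested, 5436 were below 0 with CSF-1 and 6653 with IL-34. Over all 53 genes the median log2 difference was -0.57 with CSF-1 and -0.40 with IL-34, beside 0.03 and -0.02 over all genes tested. In 38 of 53 genes with CSF-1 every cerebellar library lay below every forebrain library, as for 12.2% of all genes, and in 27 of 53 with IL-34, as for 18.9%. With the length floor as a covariate, 20 genes were called with CSF-1 (3.96% of all genes) and 1 with IL-34, where calls over all genes also fell away, to 0.58%, and where the cerebellar libraries have the lowest floors. Without any 1 of the 3 cerebellar CSF-1 or the 3 forebrain CSF-1 libraries the count of 20 was between 8 and 12.

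The ligand difference was smaller and less evenly spread. Averaged over the regions, 12 of 50 genes were lower with IL-34 than with CSF-1 and none was higher, where 10.7% of all genes were called lower. The 12 were Anln, Aurkb, Ccna2, Ckap2l, Gtse1, Incenp, Kif11, Kif23, Mki67, Ndc80, Nusap1 and Racgap1, and the first 11 also had a regional call. In cerebellum 5 genes were lower (Ccna2, Gtse1, Incenp, Nusap1 and Racgap1), a share close to the 9.82% of all genes called lower there. Likewise, 16 of 53 genes had every IL-34 library below every CSF-1 library in cerebellum, close to the 27.9% of all genes. In forebrain 1 gene, Gtse1, was called lower, where 0.773% of all genes were. There 24 of 53 genes had every IL-34 library below every CSF-1 library, against 12.6% of all genes. The 2 ligand contrasts also use separate libraries, and both were below 0 for 40 genes and of opposite sign for 12. Of 12419 genes tested, 8439 were below 0 in cerebellum and 7582 in forebrain. Over the 53 genes the median log2 difference was -0.21 in cerebellum and -0.32 in forebrain, beside -0.10 and -0.04 over all genes. No gene's ligand difference was called different between the regions by the interaction test in limma, where 0.145% of all genes were called. An unadjusted interaction p under 0.05 was found for 2 of 50 genes, Ccnb1 and Kif22, a smaller share than the 12.1% of all genes. After median-of-ratios scaling 5 of 50 were called lower, against 5.06% of all genes, and with the length floor as a covariate 3 of 50, against 3.45%. Over all genes, that scaling turned 339 higher and 1328 lower calls into 703 higher and 628 lower ones, while no mitotic gene was called higher. The count of 12 depended on single libraries: leaving out 1 gave between 4 and 11, and only without forebrain IL-34 replicate 1, forebrain CSF-1 replicate 1 or cerebellar IL-34 replicate 3 was the count at least 8.

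**Figure D2:**
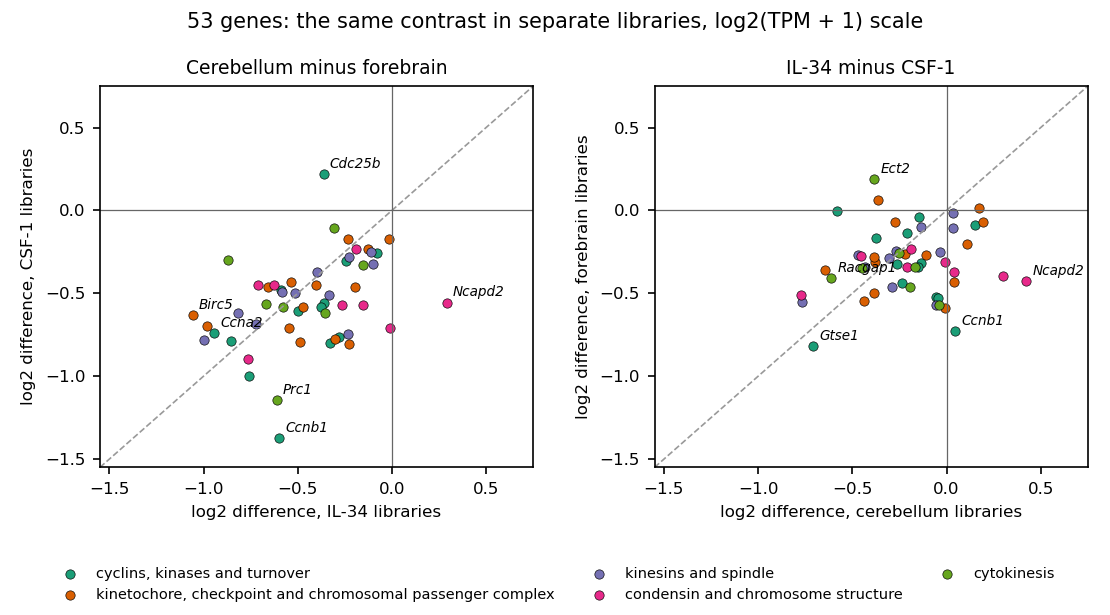
Log2 difference of each of the 53 genes on the log2(TPM + 1) scale, coloured by role, with cerebellum minus forebrain in IL-34 libraries (x) against CSF-1 libraries (y) at left and IL-34 minus CSF-1 in cerebellar (x) against forebrain libraries (y) at right. The dashed line marks equal differences. At left, 51 of 53 points lie below 0 on both axes, and at right 40 do.

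Among the cyclins, kinases and turnover factors, Ccnb1, Ccnb2 and Ccna2 were all lower in cerebellum with CSF-1. Ccnb1 encodes cyclin B1, the partner of CDK1. Its level was 4.14, 3.56 and 4.91 TPM in the 3 cerebellar IL-34 libraries, 5.17, 4.67 and 2.59 TPM in the cerebellar CSF-1 libraries, 5.66, 7.70 and 7.33 TPM in the forebrain IL-34 libraries and 12.03, 12.98 and 11.04 TPM in the forebrain CSF-1 libraries. The cerebellar groups overlapped, forebrain IL-34 lay above both and forebrain CSF-1 above all. Ccnb1 was lower in cerebellum with CSF-1, by a log2 difference of -1.38 ± 0.19 (SE), adjusted p = 0.00183. With IL-34 the difference of -0.60 ± 0.19 (SE), adjusted p = 0.064 was not called. The ligand difference in forebrain was -0.73 ± 0.19 (SE), adjusted p = 0.104, and in cerebellum it was 0.05 (adjusted p = 0.892). Summed over coding transcripts, Ccnb1 was also lower in cerebellum with IL-34 (-0.89 ± 0.17 (SE), adjusted p = 0.00558). It was lower there with IL-34 over both regions too (-0.39 ± 0.12 (SE), adjusted p = 0.0443).

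Ccnb2, for cyclin B2, differed by region alone. It had 2.26, 3.04 and 2.62 TPM in cerebellar IL-34 libraries, 2.36, 2.58 and 1.91 in cerebellar CSF-1 libraries, 5.78, 4.55 and 5.15 in forebrain IL-34 libraries and 6.02, 4.70 and 5.98 in forebrain CSF-1 libraries. Every cerebellar library lay below every forebrain library, while the ligand groups overlapped within each region. The regional log2 difference was -0.76 ± 0.14 (SE), adjusted p = 0.00551 with IL-34, and -1.0 ± 0.14 (SE), adjusted p = 0.0017 with CSF-1. Ccna2 encodes cyclin A2, which acts from S phase to early mitosis. It had 3.30, 3.43 and 2.75 TPM with IL-34 and 4.85, 3.97 and 4.33 TPM with CSF-1 in cerebellar libraries, and 7.02, 6.48 and 7.48 TPM with IL-34 and 7.66, 7.86 and 8.38 TPM with CSF-1 in forebrain libraries. The 4 groups did not overlap at any point. Ccna2 was lower in cerebellum with IL-34 (-0.94 ± 0.11 (SE), adjusted p = 0.000305) and with CSF-1 (-0.74 ± 0.11 (SE), adjusted p = 0.00201), and lower with IL-34 in cerebellum (-0.37 ± 0.11 (SE), adjusted p = 0.0434), while the ligand difference in forebrain of -0.17 was not called. The regional calls of Ccna2 held under every alternative, and its mean ligand call under 10 of 25.

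Of the kinases, Cdk1 was called in a regional contrast and Plk1 and Aurka in none over all transcripts. Cdk1, the kinase that drives mitosis, had 13.5, 14.7 and 11.4 TPM in the 3 cerebellar IL-34 libraries, 17.3, 13.6 and 13.5 TPM in the cerebellar CSF-1 libraries, 16.4, 16.7 and 18.6 TPM in the forebrain IL-34 libraries and 25.5, 21.4 and 19.8 TPM in the forebrain CSF-1 libraries. Forebrain CSF-1 libraries lay above all others, and the cerebellar CSF-1 range overlapped both cerebellar IL-34 and forebrain IL-34. Cdk1 was lower in cerebellum with CSF-1 (-0.56 ± 0.13 (SE), adjusted p = 0.025), and the mean ligand difference was -0.25 ± 0.09 (SE), adjusted p = 0.091. Summed over coding transcripts, Cdk1 was also lower in cerebellum with IL-34 (-0.46 ± 0.12 (SE), adjusted p = 0.023) and lower with IL-34 over both regions (-0.32 ± 0.08 (SE), adjusted p = 0.0232). Plk1, which activates the entry phosphatase and builds spindle poles, had 1.73, 3.86 and 2.60 TPM in cerebellar IL-34 libraries, 3.46, 2.56 and 2.38 in cerebellar CSF-1 libraries, 3.46, 3.95 and 3.31 in forebrain IL-34 libraries and 4.68, 4.93 and 7.42 in forebrain CSF-1 libraries. Its forebrain CSF-1 libraries lay above the other 9, which overlapped, and no contrast was called. The regional difference of Plk1 with CSF-1 was -0.80 ± 0.22 (SE), adjusted p = 0.0516. Over coding transcripts it was -0.66 ± 0.17 (SE), adjusted p = 0.038, and was called. Aurka, for Aurora A at spindle poles, averaged 4.32 ± 0.756, 5.42 ± 2.11, 5.98 ± 1.62 and 8.35 ± 1.15 TPM in the 4 groups (SD, n = 3 each), again with no call.

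Genes of the exit from mitosis and of turnover were mixed. Cdc20 encodes the activator of the anaphase-promoting complex. It had 5.46, 2.73 and 5.08 TPM in cerebellar IL-34 libraries, 4.38, 6.42 and 3.97 in cerebellar CSF-1 libraries, 7.47, 8.47 and 5.17 in forebrain IL-34 libraries and 6.98, 6.38 and 8.17 in forebrain CSF-1 libraries, and neighbouring groups overlapped. Its regional difference was -0.59 ± 0.24 (SE), adjusted p = 0.124 with IL-34, and the mean ligand difference was -0.09 (adjusted p = 0.74). Over coding transcripts the regional difference with IL-34 was -0.58 ± 0.17 (SE), adjusted p = 0.045. Ube2c, the ubiquitin-conjugating enzyme of the same complex, had 4.65, 3.38 and 4.43 TPM with IL-34 and 6.06, 3.83 and 5.08 TPM with CSF-1 in cerebellar libraries, and 6.35, 9.76 and 9.04 TPM with IL-34 and 11.9, 8.03 and 8.10 TPM with CSF-1 in forebrain libraries. Every cerebellar library lay below every forebrain library, and the ligand groups overlapped. Ube2c was lower in cerebellum with IL-34 (-0.85 ± 0.20 (SE), adjusted p = 0.0184) and with CSF-1 (-0.79 ± 0.20 (SE), adjusted p = 0.0407).

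Gtse1, a microtubule-associated protein made in S and G2 phase that restrains p53, was the 1 gene with a ligand call in each region. It had 2.28, 2.36 and 3.09 TPM in the 3 cerebellar IL-34 libraries, 4.37, 4.99 and 5.13 TPM in the cerebellar CSF-1 libraries, 4.53, 3.92 and 3.65 TPM in the forebrain IL-34 libraries and 7.28, 8.17 and 8.16 TPM in the forebrain CSF-1 libraries. Within each region every IL-34 library lay below every CSF-1 library, and cerebellar CSF-1 overlapped forebrain IL-34. Gtse1 was lower with IL-34 in cerebellum (-0.71 ± 0.12 (SE), adjusted p = 0.0072), in forebrain (-0.82 ± 0.12 (SE), adjusted p = 0.00927) and over both (-0.76 ± 0.09 (SE), adjusted p = 0.000461), the last under all 25 alternatives. It was also lower in cerebellum with IL-34 (-0.50 ± 0.12 (SE), adjusted p = 0.0217) and with CSF-1 (-0.61 ± 0.12 (SE), adjusted p = 0.0136). The 4 genes Ccnf, Cdc25b, Cdca3 and Cdc25c, of which the last was not tested, had no call over all transcripts. Cdc25b, a phosphatase that activates CDK1, was over all transcripts the 1 gene of the 53 above 0 in cerebellum against forebrain with CSF-1. This difference was 0.22 ± 0.21 (SE), adjusted p = 0.582, and over coding transcripts it was -0.24 ± 0.105 (SE), adjusted p = 0.19. Over coding transcripts Cdc25b was lower in cerebellum with IL-34 (-0.46 ± 0.105 (SE), adjusted p = 0.015).

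**Figure D3:**
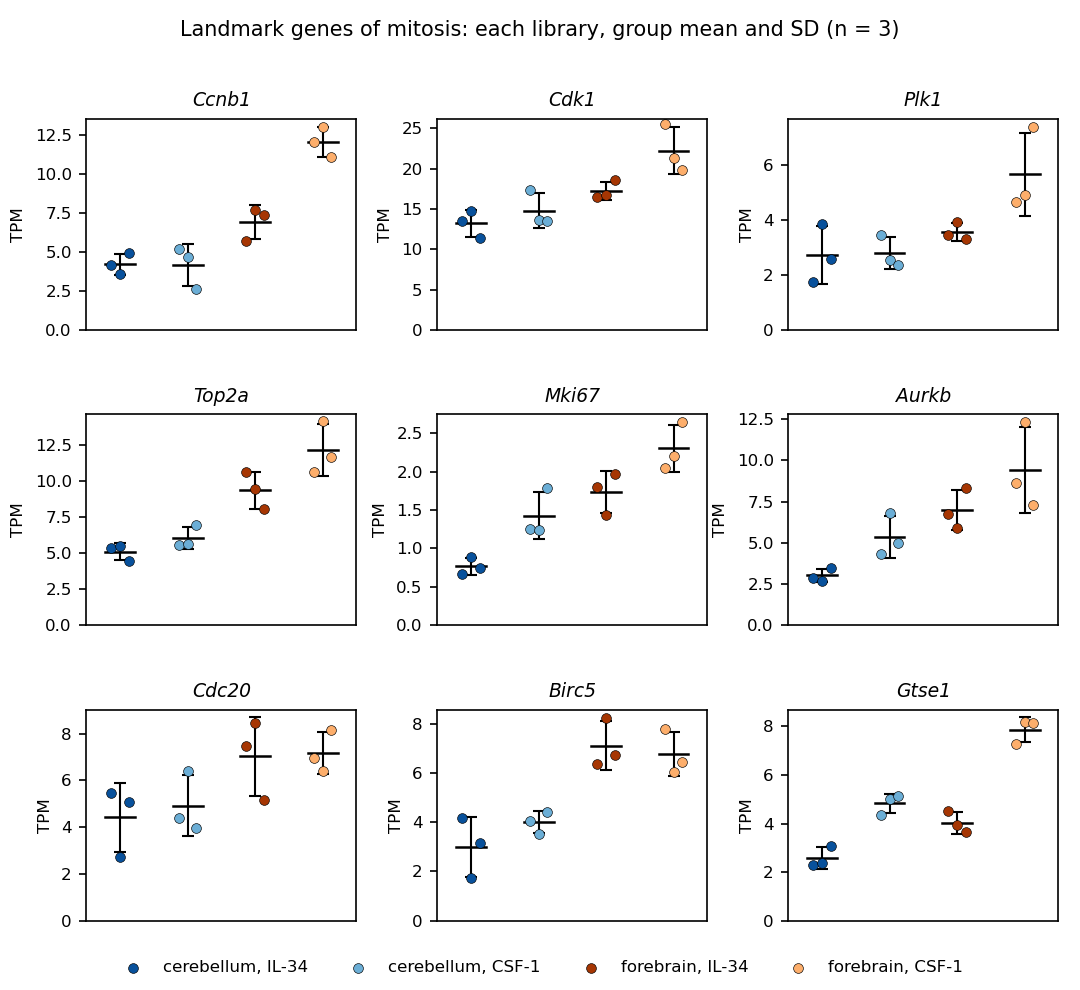
TPM of 9 landmark genes of mitosis in each library (points), with the group mean and SD (bars, n = 3 each), in the order cerebellum IL-34, cerebellum CSF-1, forebrain IL-34 and forebrain CSF-1. Forebrain CSF-1 points lie above all others for Ccnb1, Cdk1, Plk1, Top2a, Mki67 and Gtse1, but not for Cdc20, Birc5 or Aurkb.

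At the kinetochore and in the checkpoint, 6 of 13 tested genes were lower in cerebellum with CSF-1, where 3.42% of all genes were. With IL-34, 4 of 13 were lower there, where 8.22% of all genes were. Mad2l1, the checkpoint protein MAD2, which holds back CDC20, had 7.52, 6.74 and 8.41 TPM in cerebellar IL-34 libraries, 9.71, 9.34 and 8.84 in cerebellar CSF-1 libraries, 13.3, 11.3 and 12.9 in forebrain IL-34 libraries and 11.8, 13.8 and 14.02 in forebrain CSF-1 libraries. All cerebellar libraries lay below all forebrain libraries, and in cerebellum all IL-34 libraries lay below all CSF-1 libraries. Coding transcripts held 49.4% of the TPM of Mad2l1. Over these the regions did not overlap, but the cerebellar ligand groups did. They had 3.79, 2.69 and 4.45 TPM with IL-34 and 3.49, 4.48 and 3.36 TPM with CSF-1. Mad2l1 was lower in cerebellum with IL-34 (-0.66 ± 0.10 (SE), adjusted p = 0.00232) and with CSF-1 (-0.46 ± 0.10 (SE), adjusted p = 0.0228). The other calls with CSF-1 were the checkpoint kinase genes Bub1 (-0.77) and Bub1b (-0.80) and 3 subunits of the NDC80 complex, which ties microtubules to kinetochores. These subunits were Ndc80 (-0.58), Nuf2 (-0.81) and Spc25 (-0.71), with adjusted p-values of the 5 genes between 0.0285 and 0.0479. Bub1b averaged 3.49 ± 0.224 TPM in cerebellar CSF-1 and 6.91 ± 1.74 TPM in forebrain CSF-1 libraries (SD, n = 3 each). Each of the 5 calls was lost without any 1 of several libraries of these groups. Bub1 over coding transcripts was also lower in cerebellum with IL-34 (-0.785 ± 0.17 (SE), adjusted p = 0.0108) and lower with IL-34 over both regions (-0.40 ± 0.12 (SE), adjusted p = 0.0409).

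Ndc80 was also lower with IL-34 over both regions (-0.44 ± 0.11 (SE), adjusted p = 0.0245). It had 2.02, 2.21 and 1.79 TPM in the 3 cerebellar IL-34 libraries, 2.88, 3.31 and 2.59 TPM in the cerebellar CSF-1 libraries, 3.91, 2.35 and 3.38 TPM in the forebrain IL-34 libraries and 4.33, 4.81 and 5.53 TPM in the forebrain CSF-1 libraries. In cerebellum the ligand groups did not overlap, and neither did they in forebrain. Cenpa, the histone H3 variant of centromeres, had no call over all transcripts, with 13.2 ± 3.00, 11.4 ± 2.29, 15.2 ± 2.14 and 15.9 ± 0.373 TPM in the 4 groups (SD, n = 3 each). Coding transcripts held 33.6% of its TPM. Summed over these, Cenpa was lower in cerebellum with IL-34 (-0.78 ± 0.20 (SE), adjusted p = 0.0219) and with CSF-1 (-0.74 ± 0.20 (SE), adjusted p = 0.0421). Ttk, the kinase that starts checkpoint signalling, and Cenpe, a kinetochore motor, had no call over all or over coding transcripts, and Cenpf was not tested.

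The chromosomal passenger complex corrects faulty attachments through Aurora B. Aurkb, which encodes that kinase, had 2.90, 2.71 and 3.48 TPM in cerebellar IL-34 libraries, 4.31, 6.78 and 5.02 in cerebellar CSF-1 libraries, 6.77, 5.92 and 8.30 in forebrain IL-34 libraries and 8.62, 12.3 and 7.27 in forebrain CSF-1 libraries. Cerebellar IL-34 libraries lay below all others, and the other 3 groups overlapped in sequence. Aurkb was lower in cerebellum with IL-34 (-0.98 ± 0.20 (SE), adjusted p = 0.00823) and lower with IL-34 over both regions (-0.50 ± 0.14 (SE), adjusted p = 0.0356), a ligand call that held under 11 of 25 alternatives. Birc5, for survivin, had 4.15, 1.72 and 3.15 TPM with IL-34 and 4.06, 3.54 and 4.40 TPM with CSF-1 in cerebellar libraries, and 6.36, 8.24 and 6.72 TPM with IL-34 and 7.79, 6.05 and 6.46 TPM with CSF-1 in forebrain libraries. Its cerebellar libraries lay below its forebrain libraries, and the ligand groups overlapped in both regions. Birc5 was lower in cerebellum with IL-34 (-1.06 ± 0.20 (SE), adjusted p = 0.007), and with CSF-1 the difference of -0.63 ± 0.20 (SE), adjusted p = 0.0922 was not called.

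Incenp, the scaffold of the complex, had 19.4, 20.8 and 20.5 TPM in the 3 cerebellar IL-34 libraries, 27.1, 26.99 and 25.7 TPM in the cerebellar CSF-1 libraries, 26.1, 22.7 and 23.3 TPM in the forebrain IL-34 libraries and 28.3, 31.6 and 30.3 TPM in the forebrain CSF-1 libraries. In each region the ligand groups stood apart. Incenp was lower with IL-34 over both regions (-0.35 ± 0.05 (SE), adjusted p = 0.00186), under all 25 alternatives, and lower in cerebellum with IL-34 (-0.23 ± 0.07 (SE), adjusted p = 0.0491), a call that held under 7 of 26. Cdca8, for borealin, completes the complex. It averaged 9.96 ± 3.32, 13.1 ± 2.71, 15.2 ± 5.45 and 17.9 ± 3.38 TPM in the 4 groups (SD, n = 3 each) and had no call.

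Among kinesins and spindle proteins, 4 of 10 tested genes were lower in cerebellum with each ligand. Of all genes, 3.42% were lower there with CSF-1 and 8.22% with IL-34. Over both regions 3 of 10 were lower with IL-34, where 10.7% of all genes were. Kif11 encodes the motor that pushes spindle poles apart. It had 1.64, 1.73 and 1.47 TPM with IL-34 and 2.11, 2.27 and 2.28 TPM with CSF-1 in cerebellar libraries, and 2.69, 2.64 and 2.85 TPM with IL-34 and 3.68, 3.29 and 3.68 TPM with CSF-1 in forebrain libraries. The 4 groups did not overlap. Kif11 was lower in cerebellum with IL-34 (-0.51 ± 0.11 (SE), adjusted p = 0.0105) and with CSF-1 (-0.50 ± 0.11 (SE), adjusted p = 0.0192), and lower with IL-34 over both regions (-0.29 ± 0.08 (SE), adjusted p = 0.0277).

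Nusap1, a protein that bundles spindle microtubules near chromosomes, had 1.05, 0.731 and 0.917 TPM in cerebellar IL-34 libraries, 1.84, 1.40 and 1.63 in cerebellar CSF-1 libraries, 2.44, 2.44 and 2.14 in forebrain IL-34 libraries and 3.04, 3.07 and 2.94 in forebrain CSF-1 libraries. Its 4 groups did not overlap either. Nusap1 was lower in cerebellum with IL-34 (-0.82 ± 0.13 (SE), adjusted p = 0.00219) and with CSF-1 (-0.62 ± 0.13 (SE), adjusted p = 0.0146), and lower with IL-34 over both regions (-0.37 ± 0.09 (SE), adjusted p = 0.0218). Hmmr, a spindle protein and hyaluronan receptor, had 1.10, 1.47 and 1.44 TPM with IL-34 and 1.70, 1.44 and 1.56 TPM with CSF-1 in cerebellar libraries, and 2.34, 2.87 and 3.37 TPM with IL-34 and 2.89, 3.38 and 3.09 TPM with CSF-1 in forebrain libraries. The regions did not overlap and the ligand groups did. Hmmr was lower in cerebellum with IL-34 (-0.72 ± 0.14 (SE), adjusted p = 0.00643) and with CSF-1 (-0.68 ± 0.14 (SE), adjusted p = 0.0138). Kif22, a motor that moves chromosome arms, averaged 3.01 ± 0.570 TPM in cerebellar CSF-1 and 5.75 ± 1.11 TPM in forebrain CSF-1 libraries (SD, n = 3 each). It was lower in cerebellum with CSF-1 alone (-0.75 ± 0.15 (SE), adjusted p = 0.014), and Ckap2l, a spindle protein, with IL-34 (-0.58 ± 0.15 (SE), adjusted p = 0.0301). Ckap2l was also lower with IL-34 over both regions (-0.39, adjusted p = 0.0385), a call that held under 7 of 24 alternatives, while that of Nusap1 held under 18 and that of Kif11 under 11 of 24. Tpx2, Dlgap5, Ckap2, Kif2c and Kif4 had no call over all transcripts, and Aspm was not tested. Over coding transcripts Tpx2 was lower in cerebellum with IL-34 (-0.61 ± 0.11 (SE), adjusted p = 0.00348) and with CSF-1 (-0.61 ± 0.11 (SE), adjusted p = 0.00562). Tpx2 (-0.256, adjusted p = 0.0386) and Kif2c (-0.44, adjusted p = 0.0373) were lower there with IL-34 over both regions. Kif2c was also lower in cerebellum with IL-34 (-0.61 ± 0.18 (SE), adjusted p = 0.0426).

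Of the 8 genes of chromosome structure, 2, Top2a and Mki67, were lower in cerebellum with IL-34, where 8.22% of all genes were. With CSF-1, 1 of 8, Top2a, was lower there, where 3.42% of all genes were. Over both regions 1 of 8, Mki67, was lower with IL-34, where 10.7% of all genes were. Top2a encodes the topoisomerase that untangles sister chromatids. It had 5.33, 5.51 and 4.42 TPM in the 3 cerebellar IL-34 libraries, 5.59, 5.66 and 6.92 TPM in the cerebellar CSF-1 libraries, 10.6, 9.43 and 8.05 TPM in the forebrain IL-34 libraries and 10.6, 14.1 and 11.6 TPM in the forebrain CSF-1 libraries. The 4 groups did not overlap, although the forebrain ligand groups nearly met at 10.6 TPM. Top2a was lower in cerebellum with IL-34 (-0.76 ± 0.14 (SE), adjusted p = 0.00461) and with CSF-1 (-0.89 ± 0.14 (SE), adjusted p = 0.00296), and the ligand difference over both regions was -0.28 ± 0.10 (SE), adjusted p = 0.0805. Mki67, for the proliferation antigen Ki-67 that coats mitotic chromosomes, had 0.673, 0.886 and 0.742 TPM in cerebellar IL-34 libraries, 1.26, 1.24 and 1.78 in cerebellar CSF-1 libraries, 1.80, 1.44 and 1.98 in forebrain IL-34 libraries and 2.05, 2.21 and 2.65 in forebrain CSF-1 libraries. Cerebellar IL-34 libraries lay lowest and forebrain CSF-1 libraries highest, each apart from the rest, while cerebellar CSF-1 overlapped forebrain IL-34. Mki67 was lower in cerebellum with IL-34 (-0.63 ± 0.15 (SE), adjusted p = 0.0193) and lower with IL-34 over both regions (-0.36 ± 0.11 (SE), adjusted p = 0.0439), a ligand call lost when 11 of the 12 libraries were left out in turn.

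Of the 5 condensin genes Smc2, Smc4, Ncapd2, Ncapg and Ncaph, whose proteins compact chromosomes, none was called in any contrast over all transcripts. Their regional log2 differences with CSF-1 lay between -0.71 for Ncapg and -0.23 for Smc2, beside -0.45 for Mki67, which was not called there either. Over coding transcripts Ncapg was lower in cerebellum with CSF-1 (-0.64 ± 0.15 (SE), adjusted p = 0.0236), and Ncapd2 was lower with IL-34 over both regions (-0.42 ± 0.12 (SE), adjusted p = 0.0375). Smc4, an ATPase subunit, had 16.4, 13.3 and 15.7 TPM with IL-34 and 9.60, 16.4 and 19.7 TPM with CSF-1 in cerebellar libraries, and 16.7, 19.1 and 15.1 TPM with IL-34 and 22.3, 28.5 and 17.02 TPM with CSF-1 in forebrain libraries. Neighbouring groups overlapped, and cerebellar CSF-1 spread the most within its region. Its coding transcripts in cerebellum had 8.91, 8.33 and 8.86 TPM with IL-34 and 9.59, 11.05 and 10.8 TPM with CSF-1, without overlap. That ligand difference was not called (-0.24 ± 0.17 (SE), adjusted p = 0.33). Ncapd2 was the 1 gene of the 53 with every IL-34 library above every CSF-1 library in cerebellum, with 8.64, 5.15 and 6.26 TPM in cerebellar IL-34 libraries, 4.77, 4.77 and 4.38 in cerebellar CSF-1 libraries, 4.55, 6.93 and 4.35 in forebrain IL-34 libraries and 4.50, 13.3 and 6.25 in forebrain CSF-1 libraries. Its ligand difference there was 0.42 ± 0.30 (SE), adjusted p = 0.37. Cdca2, which brings a phosphatase to chromosomes at the end of mitosis, averaged 0.830 ± 0.267, 2.14 ± 0.590, 2.06 ± 0.917 and 3.63 ± 2.54 TPM in the 4 groups (SD, n = 3 each) and had no call.

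In cytokinesis, 3 of 7 genes were lower in cerebellum with each ligand. Of all genes, 3.42% were lower there with CSF-1 and 8.22% with IL-34. Over both regions 3 of 7 were lower with IL-34, where 10.7% of all genes were. Prc1, which bundles microtubules of the central spindle, had 5.41, 3.48 and 4.85 TPM in the 3 cerebellar IL-34 libraries, 3.95, 5.18 and 4.93 TPM in the cerebellar CSF-1 libraries, 10.98, 5.32 and 6.92 TPM in the forebrain IL-34 libraries and 12.1, 10.8 and 11.7 TPM in the forebrain CSF-1 libraries. Its cerebellar groups overlapped, and forebrain IL-34 was spread widely. Prc1 was lower in cerebellum with CSF-1 (-1.14 ± 0.21 (SE), adjusted p = 0.00911), under every alternative, and with IL-34 the difference was -0.61 ± 0.21 (SE), adjusted p = 0.0789. With IL-34 it was called over coding transcripts (-0.77 ± 0.22 (SE), adjusted p = 0.0351). Kif20a, a motor of the central spindle, had 2.54, 2.73 and 1.99 TPM with IL-34 and 3.01, 2.88 and 3.26 TPM with CSF-1 in cerebellar libraries, and 4.68, 4.37 and 3.29 TPM with IL-34 and 4.75, 4.82 and 5.66 TPM with CSF-1 in forebrain libraries. The 4 groups did not overlap. Kif20a was lower in cerebellum with IL-34 (-0.58 ± 0.14 (SE), adjusted p = 0.0199) and with CSF-1 (-0.58 ± 0.14 (SE), adjusted p = 0.03).

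Racgap1 and Kif23 form the centralspindlin complex, and Ect2 and Anln act with it to build the contractile ring. Racgap1 had 5.88, 8.33 and 6.70 TPM in cerebellar IL-34 libraries, 11.9, 9.24 and 12.3 in cerebellar CSF-1 libraries, 10.3, 8.35 and 7.85 in forebrain IL-34 libraries and 10.1, 11.4 and 14.9 in forebrain CSF-1 libraries. In cerebellum the ligand groups did not overlap. Racgap1 was the 1 gene with a ligand call (-0.51 ± 0.12 (SE), adjusted p = 0.0184) and no regional one, its regional differences being -0.31 with IL-34 and -0.10 with CSF-1. Kif23 was lower in cerebellum with CSF-1 (-0.62 ± 0.14 (SE), adjusted p = 0.0221) and lower with IL-34 over both regions (-0.33, adjusted p = 0.0467). Anln averaged 0.838 ± 0.282 TPM in cerebellar IL-34 and 1.90 ± 0.0971 TPM in forebrain IL-34 libraries (SD, n = 3 each). It was lower in cerebellum with IL-34 (-0.67 ± 0.16 (SE), adjusted p = 0.0178) and lower with IL-34 over both regions (-0.40, adjusted p = 0.0362). These mean ligand calls held under 7 of 24 alternatives for Kif23 and 8 of 24 for Anln, that of Racgap1 under 23 of 25. Anln over coding transcripts was also lower in cerebellum with CSF-1 (-0.56 ± 0.14 (SE), adjusted p = 0.037). Ect2 was lower in cerebellum with IL-34 (-0.87 ± 0.19 (SE), adjusted p = 0.0135), a call that was lost over transcripts of 1000 nt or more, and its log2 difference was -0.19 once trends of length and GC content were removed there. The call held over coding transcripts (-0.86 ± 0.15 (SE), adjusted p = 0.00299). Kif20b had no call over all transcripts. Over coding transcripts it was lower with IL-34 over both regions (-0.255 ± 0.08 (SE), adjusted p = 0.0415).

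Summed by role, all 5 roles had their highest libraries in forebrain CSF-1. The cyclin and kinase genes summed to 52.3, 49.4 and 51.6 TPM in cerebellar IL-34 libraries, 65.9, 63.5 and 55.4 in cerebellar CSF-1 libraries, 78.2, 78.2 and 76.7 in forebrain IL-34 libraries and 103, 99.7 and 102 in forebrain CSF-1 libraries. Genes of the kinetochore, checkpoint and passenger complex summed to 68.4, 73.9 and 82.9 TPM with IL-34 and 88.2, 92.7 and 86.99 TPM with CSF-1 in cerebellar libraries, and 114, 98.8 and 110.0 TPM with IL-34 and 126, 131 and 128 TPM with CSF-1 in forebrain libraries. In both roles the 4 groups stood apart without overlap, and they did so too for kinesins and spindle proteins. For cytokinesis cerebellar CSF-1 and forebrain IL-34 overlapped, at 27.9 to 31.0 and 30.9 to 39.8 TPM. For chromosome structure the sums were 49.97, 46.00 and 45.1 TPM in cerebellar IL-34 libraries, 41.6, 49.8 and 54.8 in cerebellar CSF-1 libraries, 58.9, 59.3 and 51.7 in forebrain IL-34 libraries and 65.02, 85.8 and 74.8 in forebrain CSF-1 libraries, where the cerebellar ligand groups overlapped and cerebellar CSF-1 reached into the range of forebrain IL-34. Their coding transcripts alone summed in cerebellum to 30.4, 31.8 and 32.2 TPM with IL-34 and 38.6, 40.7 and 41.9 TPM with CSF-1. These ligand groups did not overlap, while cerebellar CSF-1 still reached into the range of forebrain IL-34.

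**Figure D4:**
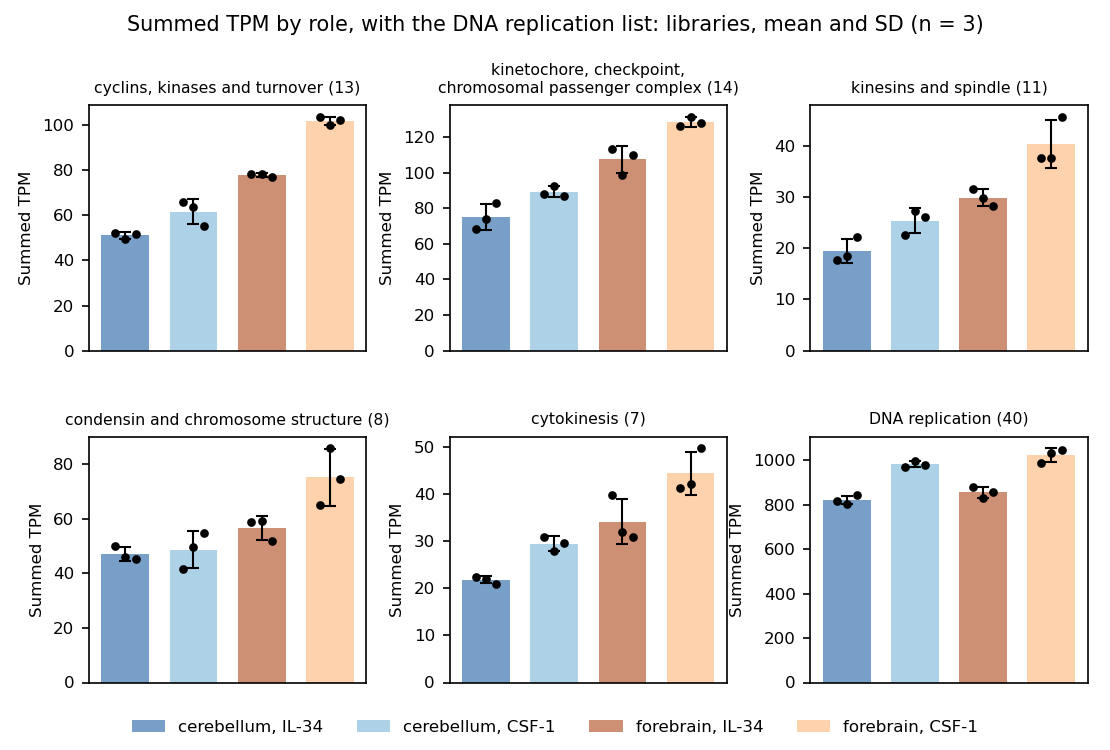
Summed TPM of the genes of each role, and of 40 DNA replication genes for comparison, by library (points) with the group mean (bars) and SD (n = 3 each), in the order cerebellum IL-34, cerebellum CSF-1, forebrain IL-34 and forebrain CSF-1. In every role the forebrain CSF-1 points lie above all others, while the replication sums are near 821 and 856 TPM with IL-34 and near 982 and 1023 TPM with CSF-1 in either region.

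The values of a gene are sums over its transcripts, and for some members these include transcripts that make no protein. The 53 genes had 274 transcripts in the table, 11 genes having only 1, Gtse1 among them. Transcripts annotated as protein coding held 84.6% of the members' TPM, between 77.4 and 89.5% per library, and those with a retained intron 8.8%. In 15 genes the coding share was under 80%. The main coding transcript of Top2a, 5221 nt long, had 3.18, 3.28 and 3.21 TPM in cerebellar IL-34 libraries, 5.15, 4.77 and 4.67 in cerebellar CSF-1 libraries, 7.13, 6.44 and 5.86 in forebrain IL-34 libraries and 8.30, 9.42 and 9.08 in forebrain CSF-1 libraries. In this transcript the 4 groups were well apart, the forebrain groups included. Summed over coding transcripts, Top2a was also lower with IL-34 over both regions (-0.44 ± 0.06 (SE), adjusted p = 0.0017).

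Several isolated high values came from short transcripts with a retained intron. Of the 7.84 TPM of Kif2c, a microtubule-depolymerizing kinesin, in cerebellar CSF-1 replicate 2, 5.96 TPM belonged to 1 such transcript of 629 nt. Of the 13.3 TPM of Ncapd2 in forebrain CSF-1 replicate 2, 8.10 TPM belonged to 1 of 646 nt. The cerebellar IL-34 values of Ncapd2 held 3.46, 2.01 and 1.61 TPM of another, 630 nt long, that was at 0 in the other 9 libraries. The main coding transcript of Ncapd2 had 3.00, 2.86 and 3.46 TPM with IL-34 and 4.09, 4.05 and 4.38 TPM with CSF-1 in cerebellar libraries, and 4.55, 3.16 and 2.46 TPM with IL-34 and 3.82, 5.17 and 5.58 TPM with CSF-1 in forebrain libraries, with every cerebellar IL-34 library below every cerebellar CSF-1 library. The direction of its ligand difference in cerebellum was therefore not the same in this transcript as in the sum over all.

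**Figure D5:**
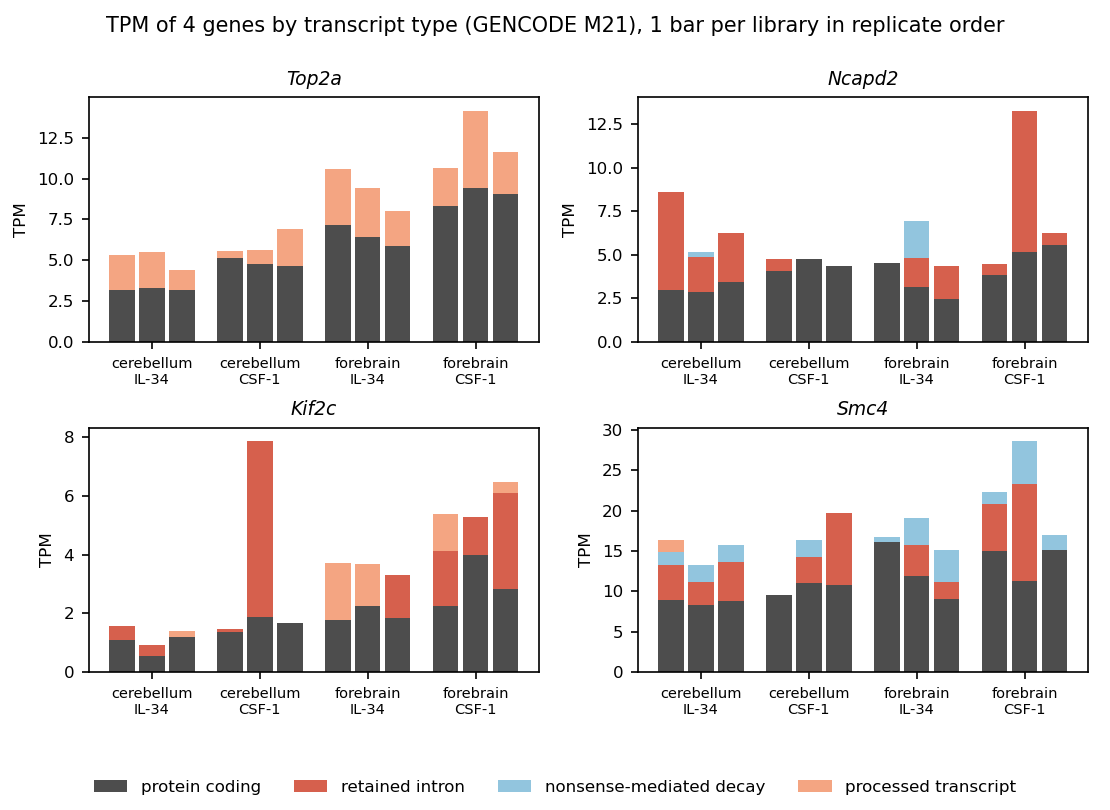
TPM of Top2a, Ncapd2, Kif2c and Smc4 in each library (1 bar each, in replicate order within each group), stacked by transcript type as annotated in GENCODE M21. The highest bars of Kif2c (7.84 TPM, cerebellum CSF-1) and Ncapd2 (13.3 TPM, forebrain CSF-1) are mostly retained-intron transcripts of 629 and 646 nt.

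Restricted to protein-coding transcripts, an alternative chosen after seeing the data, the differences covered more of the genes. Elsewhere, calls of single genes are over all transcripts unless coding transcripts are named. With CSF-1, 25 members were lower in cerebellum, where 4.3% of all genes were, and with IL-34, 26, where 10.6% were. Over both regions 20 members were lower with IL-34, where 14.8% were, with 7 in cerebellum (13.5%) and 4 in forebrain (1.35%), and no member was higher in any contrast. Without overlap between libraries, 46 of 53 genes were lower in cerebellum with CSF-1 (14.3% of all genes) and 39 with IL-34 (21.5%). In the ligand contrasts these counts were 23 in cerebellum (31.4%) and 28 in forebrain (13.7%), with 1 gene, Cenpa, higher with IL-34 in forebrain. All 4 groups stood apart, from cerebellar IL-34 up to forebrain CSF-1, for 5 of 53 genes over all transcripts (Ccna2, Kif11, Nusap1, Top2a and Kif20a), as for 0.314% of all genes. Over coding transcripts Bub1 joined them, making 6, as for 0.332% of all genes.

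Genes that act around the members were compared through 5 lists with 108 genes in all, of which 101 were tested. Of the 15 genes that control transcription in G2 and M, Mybl2, for B-MYB, was lower in cerebellum with IL-34 (-0.84 ± 0.21 (SE), adjusted p = 0.022) and with CSF-1 (-0.82 ± 0.21 (SE), adjusted p = 0.0376). Its levels were 1.17 ± 0.483, 1.37 ± 0.236, 2.85 ± 0.592 and 3.25 ± 0.834 TPM in the 4 groups (SD, n = 3 each). Rbbp4 and Tfdp1 were higher in cerebellum with IL-34. E2f4 was lower with IL-34 over both regions (-0.14 ± 0.03 (SE), adjusted p = 0.0261), and Lin37, a subunit of DREAM, was higher (0.28 ± 0.08 (SE), adjusted p = 0.0348). Lin37 was also higher with IL-34 in cerebellum (0.44 ± 0.11 (SE), adjusted p = 0.0268), and no further gene of this list was called.

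Of 15 tested genes of mitotic entry and its checkpoint, 4 were lower with IL-34 over both regions, where 10.7% of all genes were. Wee1 (-0.46 ± 0.09 (SE), adjusted p = 0.00802) and Pkmyt1 (-0.44 ± 0.12 (SE), adjusted p = 0.03) encode kinases that hold CDK1 inactive, and Cdc25a (-0.38 ± 0.11 (SE), adjusted p = 0.0464) a phosphatase that releases it. The fourth was Cdkn1a, for the inhibitor p21, with 332 ± 9.14, 358 ± 9.85, 420.0 ± 15.4 and 531 ± 29.3 TPM in the 4 groups (SD, n = 3 each). This gene, which slows the cycle, was also lower in cerebellum with IL-34 (-0.34 ± 0.05 (SE), adjusted p = 0.00188) and with CSF-1 (-0.57 ± 0.05 (SE), adjusted p = 7.72e-05), the same direction as the mitotic genes.

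Of 17 genes of the anaphase-promoting complex and its regulators none was lower in any contrast, and Pttg1, for securin (0.55 ± 0.14 (SE), adjusted p = 0.0292), and Anapc10 (0.93 ± 0.25 (SE), adjusted p = 0.0351) were higher with IL-34 in cerebellum. Anapc10 and Anapc13 were higher in cerebellum with IL-34. Of 14 cohesin genes, Pds5a and Wapl were lower with IL-34 over both regions, where 10.7% of all genes were. Mau2 was higher in cerebellum with CSF-1. Of 40 tested among the other mitotic genes, 6 were lower and none higher with IL-34 over both regions, where 10.7% of all genes were lower. With CSF-1, 6 were lower in cerebellum than in forebrain, where 3.42% of all genes were. With IL-34, 6 were lower and 1, Ncaph2, higher in cerebellum than in forebrain, where 8.22% of all genes were lower. Pbk, a mitotic kinase, had 1.80 ± 0.523, 3.12 ± 0.849, 3.58 ± 0.556 and 6.11 ± 0.478 TPM in the 4 groups (SD, n = 3 each), and it was lower in cerebellum with IL-34 (-0.72 ± 0.18 (SE), adjusted p = 0.0249) and with CSF-1 (-0.80 ± 0.18 (SE), adjusted p = 0.0238). Fam64a had a regional difference of -1.15 ± 0.15 (SE), adjusted p = 0.00142 with CSF-1.

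Genes of DNA replication, which act before mitosis in the same cycle, had most of their calls in the ligand contrasts. Of 40 genes, 21 were lower with IL-34 over both regions, 12 in cerebellum and 5 in forebrain, with none higher. Of all genes tested, 10.7%, 9.82% and 0.773% were called lower in these contrasts. In the regional contrasts 3 of 40 were lower with CSF-1, where 3.42% of all genes were. With IL-34, 2 of 40 were lower and 2 higher, where 8.22% of all genes were lower and 654 of 12419 higher. Their sum was 821 ± 19.6, 982 ± 13.8, 856 ± 25.6 and 1023 ± 30.2 TPM in the 4 groups (SD, n = 3 each). It was 16.4% lower with IL-34 in cerebellum and 16.3% lower in forebrain, and 4.08% lower in cerebellum than forebrain with IL-34 and 3.95% lower with CSF-1. Beside this, the sum of the 53 mitotic genes was 29.9% and 34.8% lower in cerebellum. The helicase gene Mcm5 had 12.96 ± 1.60, 21.9 ± 0.156, 14.6 ± 1.11 and 22.8 ± 1.40 TPM in the 4 groups (SD, n = 3 each), a ligand difference of -0.66 ± 0.06 (SE), adjusted p = 0.000206. The difference between the 2 lists was not itself tested.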

How the data were processed

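The 12 libraries, 3 for each region and ligand, were grouped by their sample titles. The labels name the SMART-Seq v4 kit, whose libraries carry no strand, so overlapping and antisense transcripts cannot be told apart. Human tissue is named in the extraction label, although the organism and cell type labels are mouse. The authors deposited TPM for each Ensembl transcript, in which reads are divided by transcript length and libraries scaled to 1000000. Depth cannot be read from TPM, and 3 libraries a group set the precision. Per the submitters' processing notes, kallisto 0.43.0 and GRCm38 were used, with no annotation release named in the labels.

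TPM was summed per gene over 115879 transcripts, 98.6% of them found in GENCODE M21, which gave type and length. Identical values were found in 0 of 66 library pairs. Differences were fitted with limma 3.58.1 (R 4.3.3) to log2(TPM + 1), as 4 group means with a variance trend and 8 residual degrees of freedom. The 12419 genes that reached 1 TPM in 3 or more libraries entered, and a gene was called at a two-sided Benjamini-Hochberg adjusted p under 0.05. Adjusted p-values come from this fit, or for coding transcripts from the same model fitted to their sums over 10796 genes. The added 1 understates changes of low genes. Motifs were searched on both strands of RefSeq promoters.

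The members, lists, tests and alternatives were chosen with earlier results of these data known. All 53 genes are accounted for. Values were given for 9 landmark genes, for members called in a contrast of 2 groups and, per role, for the 3 members with the smallest p of the mean ligand contrast, and from other lists for up to 4 genes. Aurka, Cdc25b, Cenpa, Cdca8, Smc4, Ncapd2, Kif2c, Tpx2 and Kif20b lie outside this rule and were chosen after their values were seen. Alternatives covered the pseudocount (0.1), filters (none, 5 TPM), scaling, variance model, library weights, replicate block, libraries in the fit, transcripts of 1000 nt or more, trends of length and GC content, the length floor and, chosen after seeing the data, coding transcripts alone.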

Additional observations from a re-analysis of the deposited data

How the results depend on the processing

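No member was called higher in any contrast under any alternative, and none of the 55 called differences changed sign. The counts of members called lower moved, and they are given with the share of all genes called lower under the same alternative. The filter of 5 TPM left 27 members to test, transcripts of 1000 nt or more left 48, no filter left all 53, and the other alternatives 50. For the mean of regions (12, 10.7%), they were 5 of 27 with the 5 TPM filter (14.4%), 5 after median-of-ratios scaling (5.06%) and quantile normalization (5.92%), 4 with no filter (3.47%), 3 with the length floor as a covariate (3.45%), 3 in 9 libraries without the 3 with the highest length floors (6.08%), 29 with longer transcripts (21.4%) and 20 with coding transcripts (14.8%). For the ligand in cerebellum (5, 9.82%), they were 2 after median-of-ratios scaling (4.13%) and quantile normalization (5.83%), with no filter (2.49%), with only the groups compared (4.74%) and in 9 libraries (3.91%), 0 with the length floor (0.145%), 8 without the variance trend (7.3%) and 11 with longer transcripts (21.1%). For the ligand in forebrain (1, 0.773%), they were 0 in 9 libraries (0.258%) or with only the groups compared (0%), 2 with array weights (2.9%), median-of-ratios scaling (0.878%) or, of 27, the 5 TPM filter (1.15%), 4 with coding transcripts (1.35%), 5 with longer transcripts (2.6%) and 7 with trends also removed (3.86%). For the region with IL-34 (17, 8.22%), they were 1 with the length floor (0.58%), 10 of 27 with the 5 TPM filter (9.69%), 11 with only the groups compared (5.6%), 26 with coding transcripts (10.6%), 26 with trends removed (11.3%) and 34 with longer transcripts (15.5%). For the region with CSF-1 (20, 3.42%), they were 7 in 9 libraries (1.51%), 11 with no filter (1.23%), 11 of 27 with the 5 TPM filter (3.84%), 11 with only the groups compared (1.94%), 34 with longer transcripts (6.3%) and 40 with trends removed (8.96%). The interaction stayed at 0 by limma, and 1 to 5 members had an unadjusted p under 0.05 across the alternatives, against 12.1% of all genes in the reported fit. The causes were not tested.

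Leaving out 1 library at a time gave 4 to 11, 2 to 5, 0 to 2, 12 to 17 and 8 to 20 members in these 5 contrasts and 0 for the interaction. For the region with CSF-1 the libraries that took it to 12 or fewer were the 6 of the groups compared. For the ligand in cerebellum the count moved by over 1.5 times without any cerebellar library, forebrain CSF-1 replicate 2 or forebrain IL-34 replicate 2. For the ligand in forebrain, leaving out forebrain IL-34 replicate 2 ended the call of Gtse1, and 2 genes were called without cerebellar CSF-1 replicate 3 or forebrain IL-34 replicate 1. Of the 12 mean ligand calls, 7 were lost under more alternatives than they held. Of the 55 calls, 8 held under every alternative run: Gtse1 and Incenp (mean ligand), Ccna2 (region with IL-34), and Ccnb1, Ccnb2, Ccna2, Top2a and Prc1 (region with CSF-1). The uncalled ligand difference of Cdc20 over both regions (Cdc20: ligand, mean of regions) lay between -0.168 and 0.03037 when 1 library was left out, the highest without cerebellar IL-34 replicate 2, and was 0.03099 with the length floor.

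The correlation of deviations from group means over 18 pairs of libraries with the same replicate number ranged from -0.454 to 0.458. It was over 0.1 in 5 of these pairs. Over 36 pairs with different numbers it ranged from -0.455 to 0.569, with 9 over 0.1. These values cannot decide whether the numbers pair the samples, because each deviation is taken from a mean of 3 libraries. With the replicate block, 5 members were called for the mean of regions (7.78% of all genes), 2 for the ligand in cerebellum (5.89%), 1 in forebrain (0.419%), 16 for the region with IL-34 (7.16%) and 15 with CSF-1 (2.7%). TPM gives no depth, so differences in genes of a few TPM cannot be weighed by their reads.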
